A study of Mus musculus with 20 samples.

Results

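CXC chemokines are small secreted proteins, named for a pair of cysteines kept apart by a single residue, which guide leukocytes along concentration gradients through G protein-coupled receptors. Here 9 of them were followed by name in mouse kidney: Cxcl1, Cxcl2, Cxcl5, Cxcl9, Cxcl10, Cxcl12, Cxcl13, Cxcl14 and Cxcl16. They made up 9 of the 27827 gene names on the array and were read by 11 of its 41174 probes. Total kidney RNA of male C57BL/6 mice, 8 to 12 weeks old, was read on one-colour Agilent arrays covering the mouse genome, 4 in each of 5 groups. Control mice had neither surgery nor treatment, so anesthesia and incision cannot be told apart from ischemia in any comparison with them. IRI mice had both renal pedicles clamped for 45 min and were killed after 6 h of reperfusion. IRI+Hemin mice had the same injury 24 h after 25 mg/kg of Hemin, which was given to raise heme oxygenase 1. Hemin mice received this dose without surgery. IPC+IRI mice were preconditioned by 15 min of ischemia and had the full injury 7 days later. The labels do not say whether each array came from a different mouse, so p-values measure the spread between arrays.

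The family is usually read in parts. Cxcl1, Cxcl2 and Cxcl5 carry an ELR motif and draw neutrophils through Cxcr2, and their genes are classic targets of NF-kappaB. Cxcl9 and Cxcl10 are interferon-inducible and draw activated T and NK cells through Cxcr3. Cxcl12 keeps Cxcr4-bearing cells in place, Cxcl13 draws B cells through Cxcr5, Cxcl14 is an epithelial chemokine, and Cxcl16 is made as a transmembrane protein that binds Cxcr6. In the injured kidney the ELR chemokines are known as early signals for neutrophil entry.

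RefSeq promoter windows (GRCm38.p6) were given for 7 of the 9 genes, and the 250 bases before each start were searched on both strands. The kappa B consensus was found in 3 of them, those of Cxcl1, Cxcl2 and Cxcl10, and in 7.01% of all 27025 promoters of the same length. The ISRE, an interferon response element searched as TTTCNNTTTC, lay in the Cxcl10 and Cxcl14 windows and in 3.04% of all promoters. The stretches below are shown because these 3 genes are the ones that were higher than in Control after every form of ischemia. Capitals mark the bases of the motif, 5′ to 3′ on the strand of the gene.
Cxcl1, kappa B, chr5:90891164-90891193, plus strand: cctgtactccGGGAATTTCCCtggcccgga
Cxcl2, kappa B, chr5:90903792-90903821, plus strand: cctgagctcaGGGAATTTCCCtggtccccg
Cxcl10, upstream kappa B, chr5:92349029-92349058, minus strand: agaggggagaGGGAAATTCCaagttcatgg
Cxcl10, downstream kappa B, chr5:92348974-92349003, minus strand: tcggtttacaGGGGACTTCCCtcgggttgc
Cxcl10, ISRE on the other strand, chr5:92349083-92349112, minus strand: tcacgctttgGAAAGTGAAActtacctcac
The Cxcl1 and Cxcl2 stretches shared the same 11 capital letters and were identical at 23 of 30 bases. At the downstream Cxcl10 site the consensus matched more than once in overlapping positions. The AP-1 letters TGACTCA, held by 4.43% of all promoters, were found in the Cxcl10 window alone. A match describes these letters alone, and binding was not measured. The GAS letters TTCNNNGAA were found in the Cxcl14 window and in 7.18% of all promoters. No kappa B, ISRE, AP-1 or GAS letters were found in the windows of Cxcl9, Cxcl12 and Cxcl13.

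Values are given as log2 expression, the log2 of a gene's signal over the 75th percentile of its array, so that 0 lies at that percentile. They are followed by ± SD over the 4 arrays of a group. A gene was tested in a comparison where 3 or more arrays of 1 of its groups were well above background, a flag of the scanner software, and it was called at an adjusted p below 0.05 (limma). The share of genes above background ran from 57.4% to 67.4% per array. The 4 arrays of a group shared a slide that held no other group, and the effects of slide and group cannot be told apart. The scans took 3 days, and Control was scanned with IRI, IPC+IRI with Hemin, and IRI+Hemin by itself, so among the comparisons made here only IRI vs Control was measured within a day. For the others, day and group cannot be told apart. The heme oxygenase gene Hmox1 was higher in IRI than in Control by 4.67 ± 0.47 (SE, adjusted p = 5.25e-07), while Hemin vs Control gave 0.56 ± 0.47 (adjusted p = 0.363). The 9 markers of kidney epithelium were above background on every array. The probes of Cxcl1, Cxcl2, Cxcl5, Cxcl9, Cxcl10 and Cxcl13 lie on chromosome 5 in the array's annotation (mm9), those of Cxcl12 on chromosome 6, of Cxcl14 on chromosome 13 and of Cxcl16 on chromosome 11.

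The effect of ischemia itself was asked in IRI vs Control. There 8 of the 9 chemokines were tested, 5 were higher and 0 were lower, beside 17% of 17711 genes called higher and 33.7% called lower. With no adjustment, the methods' t-test found 6 higher and 0 lower, beside 3131 and 6140 of the 17711 genes. The median difference of the members tested was 1.46, against -0.17 for all genes tested. Cxcl1, Cxcl2, Cxcl10, Cxcl13 and Cxcl14 passed, and Cxcl9, Cxcl12 and Cxcl16 did not. Of the 5 that passed, Cxcl1, Cxcl2 and Cxcl13 entered the test through their IRI arrays alone, which left room for a higher call and little for a lower one.

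Cxcl2, Cxcl5 and Cxcl13 were not above background on any Control array. As measured, Cxcl1, the main neutrophil attractant of the mouse, had the largest difference of the 9. Its log2 expression in Control was -4.58, -5.65, -2.50 and -4.88, and only the third of these arrays was well above background. In IRI it was 1.75, 2.75, 2.24 and 2.27. The IRI arrays formed a narrow band far above the Control arrays, which themselves spanned over 3 units. The difference was 6.66 ± 0.52 (SE, adjusted p = 3.49e-08). Its size rests on 3 Control arrays that were not above background. With those raised to the lowest signal well above background on each array, a setting chosen after the data were seen, it was 6.37, and with normexp background correction, which compresses dim signals, it was 3.87.

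Cxcl1 reached the same band in both protected groups. In IRI+Hemin it was 2.46, 2.00, 2.99 and 2.00, and in IPC+IRI it was 1.61, 2.34, 2.13 and 2.93. Against Control these were differences of 6.77 (adjusted p = 3.56e-08) and 6.66 (adjusted p = 4.17e-08), or 6.48 and 6.37 with the dim Control arrays raised. Against IRI, IRI+Hemin differed by 0.11 with a 95% confidence interval from -0.99 to 1.21. IPC+IRI differed by less than 0.01 in the means, with an interval from -1.10 to 1.10. The arrays of the 3 ischemic groups overlapped throughout, but the intervals are wide enough to hold a change of about 1 unit, or 2-fold, either way.

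Hemin alone gave Cxcl1 values of -4.17, -2.60, -2.29 and -3.04, and all 4 arrays were well above background. Each of them lay above 3 of the Control arrays, but Control replicate 3 reached into their range. The difference from Control was 1.38 ± 0.52 (SE, adjusted p = 0.0468), or 1.10 with the 3 dim Control arrays raised as above. Cxcl1 was the 1 chemokine called in Hemin vs Control, where 6 were tested, 1 was higher and 0 were lower beside 18.4% of all genes higher and 17.5% lower. It entered the test through the Hemin arrays alone. This call was lost in 14 of the 20 fits that left out an array, where the adjusted p rose to at most 0.148, and kept without Control replicate 3, IRI+Hemin replicate 3 or 4, IPC+IRI replicate 1 or 4, or Hemin replicate 1. It was also lost with normexp (0.07, adjusted p = 0.864).

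Cxcl2, which acts on the same receptor, was detected after ischemia alone. It was not well above background on any Control array, where it measured between -7.07 and -6.76, nor on any Hemin array. In IRI it was -3.87, -2.68, -3.79 and -2.87, at least 2.63-fold higher than in Control (adjusted p = 8.08e-05). In IPC+IRI it was -4.76, -2.52, -2.79 and -4.45, at least 2.10-fold higher (adjusted p = 0.000165). IRI+Hemin held -4.10, -2.74, -3.11 and -6.20, the last of them not above background, and was at least 1.58-fold higher (adjusted p = 0.000508). These bounds set the dim group at the lowest signal that was well above background on each of its arrays. Here and below, a p-value beside a bound is that of the fitted difference, which rests on dim values not above background. The bound itself was not tested. The arrays of the 3 ischemic groups overlapped, and neither IPC+IRI vs IRI (-0.33, interval -1.58 to 0.92) nor IRI+Hemin vs IRI (-0.73, interval -1.98 to 0.51) passed the test. With normexp IRI vs Control kept its call (0.73, adjusted p = 0.0118), the calls over Control in IPC+IRI and IRI+Hemin were lost (adjusted p = 0.271 and 0.472), and IRI+Hemin vs IRI passed (adjusted p = 0.0367).

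Cxcl5, the third ELR chemokine and a product of epithelial cells, was seen on fewer arrays. It was above background on 0 of 4 Control and 0 of 4 Hemin arrays, 1 IRI array, 2 IRI+Hemin arrays and 3 IPC+IRI arrays. IRI measured -3.28, -5.49, -6.75 and -5.42, and IRI+Hemin -7.53, -3.35, -5.14 and -6.09. IPC+IRI measured -5.66, -1.45, -3.15 and -4.73, which included the brightest array of the 20. Only the comparisons with IPC+IRI could be tested. IPC+IRI was at least 1.93-fold higher than Control (adjusted p = 0.00453), and it differed from IRI by 1.49 with an interval from -0.32 to 3.30 (adjusted p = 0.171). With normexp the difference from Control was 0.40 (adjusted p = 0.291).

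Some neutrophil markers were also higher after ischemia. The summed signal of 12 markers, in units of the 75th percentile, was 0.477 to 0.806 in Control and 0.656 to 1.78 in Hemin. It was 2.74 to 8.84 in IRI, 2.38 to 10.2 in IRI+Hemin and 6.63 to 20.4 in IPC+IRI, and no ischemic array overlapped the unoperated ones. S100a9, a gene of granulocytes and monocytes, made up 69% to 85.7% of this sum on the ischemic arrays, so the sum mostly follows 1 gene. Retnlg, a neutrophil granule gene, was at least 5.95-fold higher in IRI than in Control (adjusted p = 2.5e-06), while Mpo, which marks immature neutrophils, was lower by 0.74 (adjusted p = 0.00729). The protease gene Elane was not above background on any array. Whole kidney was measured, so more cells of a type and more RNA per cell cannot be told apart. The part of neutrophils in the chemokine values was not tested.

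The interferon-inducible pair differed in its calls, and the genes were not tested against each other. In IRI vs Control their intervals overlapped, at 2.04 to 4.17 for Cxcl10 and -1.50 to 2.27 for Cxcl9. Cxcl10 was higher than in Control after all 3 forms of ischemia, whereas Cxcl9 was not called in IRI or IPC+IRI and was lower in IRI+Hemin. Cxcl10 in Control was -0.93, -1.15, -0.42 and 0.13, and in IRI 3.01, 3.51, 1.78 and 1.74. The lowest IRI array stood well over the highest Control array, and the difference was 3.11 ± 0.51 (SE, adjusted p = 7.8e-05), or 8.6-fold.

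In IPC+IRI, Cxcl10 was 2.71, 2.32, 2.93 and 1.196, again above every Control array, with a difference of 2.88 (adjusted p = 0.000131). In IRI+Hemin it was 1.80, 0.00, 1.48 and 2.60. Replicate 2 fell within the Control range, and the difference from Control was 2.06 (adjusted p = 0.00219). IRI+Hemin vs IRI was -1.04 with an interval from -2.11 to 0.02 (adjusted p = 0.103), and the arrays of the 2 groups overlapped. Without IRI+Hemin replicate 4 it was -1.42 and passed (adjusted p = 0.0351). IPC+IRI vs IRI was -0.22, with an interval from -1.29 to 0.84. In Hemin, Cxcl10 ran from -0.23 to 0.52 and overlapped Control.

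Cxcl9 in Control was -2.79, -2.31, -1.78 and -1.86. In IRI it was 0.30, -1.28, -3.12 and -3.09, so that replicates 1 and 2 stood above all Control arrays and replicates 3 and 4 below them. The difference of 0.38 had an interval from -1.50 to 2.27 (adjusted p = 0.746). Cxcl9 was -3.74, -0.40, -0.92 and -3.02 in IPC+IRI, and the difference from IRI was -0.22 (interval -2.10 to 1.66). Hemin alone ran from -3.42 to -2.42.

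IRI+Hemin held the lowest Cxcl9 values of the series, at -5.54, -2.60, -7.30 and -5.02. Only replicate 2 was well above background there. Replicate 2 also lay within the ranges of IRI and Control, while the other three lay below every array of both groups. The difference was -3.32 ± 0.89 against IRI (SE, adjusted p = 0.00628) and -2.93 against Control (adjusted p = 0.00965). Their size rests on the 3 arrays not above background, and with those raised in the same way as for Cxcl1 the differences were -2.86 and -2.48. The exact permutation test, two-sided, gave p = 0.086 against IRI and p = 0.057 against Control, where 0.029 is the smallest p that 4 arrays against 4 allow. Raised in this way, the difference from Hemin was -1.86. As measured it was -2.31 (adjusted p = 0.0442), a call lost in 11 of the 20 fits that left out an array, at an adjusted p of at most 0.164 (without IRI+Hemin replicate 1, 3 or 4, any Hemin array, Control replicate 2, 3 or 4, or IRI replicate 2). The call against IRI was kept in all 20 of these fits, with values from -4.15 to -2.59. It was lost in the methods' t-test after Benjamini-Hochberg adjustment (adjusted p = 0.0922), and with normexp it was -1.15 and still passed. The call against Control was lost with normexp and with that t-test.

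Whether Hemin changed the response to ischemia was asked by an interaction, the difference between IRI+Hemin vs Hemin and IRI vs Control. None of the 8 chemokines tested passed, beside 7.77% of 19058 genes. Cxcl9 gave -2.70 (interval -5.36 to -0.03, adjusted p = 0.218) and Cxcl10 -1.72 (interval -3.23 to -0.21, adjusted p = 0.159). Both had an unadjusted p below 0.05, at 0.0474 and 0.0275. Cxcl1 gave -1.27 (interval -2.82 to 0.28, adjusted p = 0.332), and without Control replicate 3 it was -1.91 and passed (adjusted p = 0.0491). That fit leaves no Control array with Cxcl1 above background, so the value is not a measured difference. With normexp the Cxcl1 interaction changed sign, at 0.13.

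Of 17 genes of the interferon response, 14 were tested in IRI+Hemin vs IRI, and 0 were higher and 7 lower beside 26.1% and 18% of all genes. In IRI+Hemin vs Control 1 was higher and 3 were lower of 14, beside 24.4% and 33.1%, and in IRI vs Control 2 were higher and 1 was lower of 14, beside 17% and 33.7%. Ifit2, an interferon-induced repressor of translation, was higher by 1.22 (adjusted p = 0.0223). In IRI+Hemin vs IRI, Ifit2 differed by -1.41 (adjusted p = 0.0115). In the interaction 3 of 15 passed, all lower, beside 1.95% of all genes lower: Ifit1, Ifit2 and Irf9, which were named after their values were seen. The summed signal of the list was 45.8, 33.9, 12.05 and 13.3 in IRI, and its replicates 1 and 2 were also the higher ones for Cxcl9 and Cxcl10. It was 12.9 to 15.1 in IRI+Hemin, 14.4 to 22.1 in Control, 18.3 to 23.7 in Hemin and 13.0 to 31.0 in IPC+IRI. T cell markers were dim, with a summed signal of 0.307 to 0.440 in IRI+Hemin and 0.417 to 0.502 in IRI, and their part in the Cxcl9 values was not tested.

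Cxcl14, which kidney epithelium can make, was higher in IRI than in Control and lower in IPC+IRI than in IRI. In IRI it was 3.35, 3.26, 3.46 and 3.01, the tightest group of the gene. In Control it was 2.71, 0.74, 2.09 and 1.76, so all IRI arrays lay above, with a difference of 1.44 ± 0.45 (SE, adjusted p = 0.0128). Without Control replicate 2 it was 1.08 (adjusted p = 0.0544).

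IPC+IRI held -0.21, 2.10, 2.38 and 2.08 for Cxcl14, all below IRI. The difference of -1.68 had an interval from -2.63 to -0.73 (adjusted p = 0.00624), and Cxcl14 was the 1 chemokine called in IPC+IRI vs IRI. There 9 were tested, 0 were higher and 1 was lower, beside 26% of all genes higher and 17.7% lower. Replicate 1 was far below the others, and without it the difference was -1.08 and still passed (adjusted p = 0.0136). It was not called by the methods' t-test after adjustment (adjusted p = 0.0818).

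IRI+Hemin gave Cxcl14 values of 1.73, 2.48, 2.47 and 2.02, also all below IRI. The difference of -1.09 (interval -2.04 to -0.15) did not pass (adjusted p = 0.0574). It passed without IPC+IRI replicate 1 (adjusted p = 0.00658) or Control replicate 1 or 2 (adjusted p = 0.0481 and 0.0394), arrays of neither group that enter through the shared spread. Hemin alone gave 0.80, 0.47, 1.06 and 0.82, and IRI+Hemin vs Hemin was 1.39 (adjusted p = 0.019), a call lost without replicate 2 of either group (adjusted p = 0.0509 and 0.0511), with normexp and without normalization (adjusted p of at most 0.0684). The interaction was -0.06, with an interval from -1.40 to 1.29.

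Cxcl13, the B cell attractant of lymphoid follicles, was dim throughout. None of the Control or Hemin arrays was above background. IRI measured -3.72, -4.05, -4.42 and -4.42, with 3 arrays above background, and Control ran from -6.52 to -4.77. IRI was at least 1.45-fold higher than Control (adjusted p = 0.0262). This call was lost without Control replicate 1 or 4 or IRI replicate 1 or 2, at an adjusted p between 0.0518 and 0.0897, with normexp (0.38, adjusted p = 0.337) and in the methods' t-test after adjustment (adjusted p = 0.0602). IPC+IRI ran from -5.10 to -2.91 and IRI+Hemin from -5.59 to -3.73, and both overlapped IRI. The differences from IRI were -0.08 (interval -1.18 to 1.02) and -0.82 (interval -1.92 to 0.29).

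Cxcl12 and Cxcl16 were bright on all 20 arrays and varied least. Cxcl12 averaged 2.13 ± 0.55 in Control and 2.45 ± 0.37 in Hemin, and 2.28 ± 0.17 in IRI, 1.95 ± 0.48 in IPC+IRI and 2.02 ± 0.62 in IRI+Hemin. No comparison called it. Its differences were 0.15 in IRI vs Control, -0.33 in IPC+IRI vs IRI (interval -0.98 to 0.33) and -0.26 in IRI+Hemin vs IRI (interval -0.91 to 0.39).

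Cxcl16 was 0.90, 0.73, 0.88 and 0.97 in Control and 1.00, 1.01, 0.98 and 1.17 in IRI. All IRI arrays lay above Control, yet the difference was 0.17 (adjusted p = 0.377). IPC+IRI gave 1.09, 1.499, 1.72 and 1.01 and exceeded Control by 0.46 (interval 0.13 to 0.78, adjusted p = 0.0172). The call was lost without IPC+IRI replicate 2 or 3 (adjusted p = 0.0536 and 0.0747). It was also lost with scaling by probes above background on all arrays, with the deposited matrix, with the compared groups alone, with a 2-fold cutoff and in the methods' t-test after adjustment, at an adjusted p of at most 0.0777. IPC+IRI vs IRI was 0.29 (interval -0.03 to 0.61) and IRI+Hemin vs IRI was -0.02 (interval -0.35 to 0.30).

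**Figure D1:**
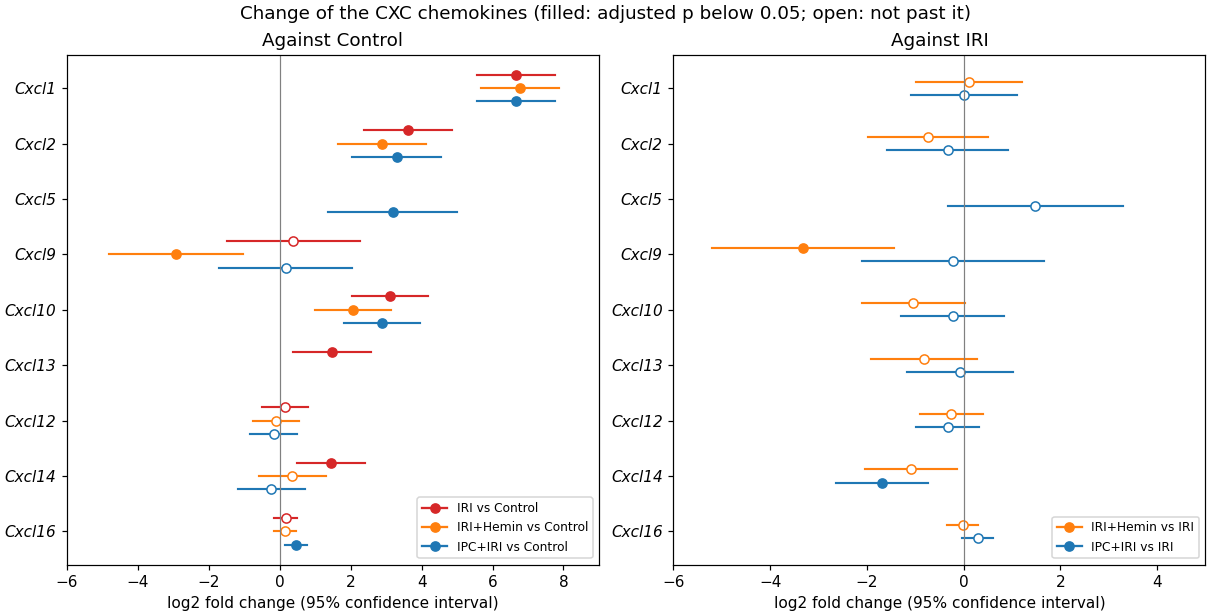
Log2 fold change (x axis) of each CXC chemokine tested, for the 3 ischemic groups against Control (left) and for IRI+Hemin and IPC+IRI against IRI (right), with 95% confidence intervals from the limma fit and filled points where the adjusted p was below 0.05. Fitted values of Cxcl2, Cxcl5 and Cxcl13 against Control rest on Control arrays that were not above background, and Cxcl1 in Control and Cxcl9 in IRI+Hemin were above it on 1 of 4 arrays. Cxcl1 stands at 6.66 in IRI vs Control, and the calls against IRI are Cxcl14 at -1.68 in IPC+IRI and Cxcl9 at -3.32 in IRI+Hemin.

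Counted over the family, 5 of 8 chemokines tested were higher and 0 lower in IPC+IRI vs Control, beside 23.1% and 32.6% of all genes. In IRI+Hemin vs Control 3 of 7 were higher and 1 was lower, beside 24.4% and 33.1%. As in IRI vs Control, some of the higher calls entered the test through the ischemic arrays alone: Cxcl1, Cxcl2 and Cxcl5 in IPC+IRI, and Cxcl1 and Cxcl2 in IRI+Hemin. IRI+Hemin vs IRI called 0 of 8 higher and 1 lower, beside 26.1% and 18%. In IRI+Hemin vs Hemin 4 of 7 were higher and 1 was lower, beside 16.4% and 27.8% of all genes. The 4 were Cxcl1 at 5.39 (adjusted p = 7.14e-07), Cxcl2, which entered the test through the IRI+Hemin arrays alone and was at least 2.24-fold higher, Cxcl14, and Cxcl10 at 1.38 (adjusted p = 0.0342). The Cxcl10 call was lost without IRI+Hemin replicate 1, 3 or 4 or Hemin replicate 1, 2 or 3, at an adjusted p of at most 0.118. It was also lost with the replicate block, without normalization and in the methods' t-test, adjusted or not, at an adjusted p of at most 0.0959. The comparisons with Control share its 4 arrays, and those with IRI share the IRI arrays.

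Cxcl12 and Cxcl16 each had a pair of probes, which did not move alike. The probe designed on transcript NM_021704 of Cxcl12 (mm9, chr6:117124474-117124533) was lower in IRI+Hemin than in Control (-1.40, adjusted p = 0.00148) and than in IRI (-1.21, adjusted p = 0.00617). The probe on NM_001012477 (mm9, chr6:117131227-117131286) differed by 0.17 and -0.09 (adjusted p = 0.669 and 0.83). Within an array, the log2 ratio of the second to the first was 1.53 ± 0.22 in Control, 2.39 ± 0.13 in Hemin, 1.98 ± 0.22 in IRI, 1.88 ± 0.25 in IPC+IRI and 3.095 ± 0.19 in IRI+Hemin. The IRI+Hemin ratios overlapped those of neither Control nor IRI nor Hemin, each at an exact permutation p of 0.029, the smallest possible, and 0.081 adjusted over 14 such comparisons. Hemin without surgery did not overlap Control either, with a difference of 0.86 at the same p and adjusted p. These ratios show unequal change of the probes, and both the probe fit and the ratio were chosen after the data were seen.

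For Cxcl16 the probe that spans an exon junction (mm9, chr11:70269521-70272262) was higher in IPC+IRI than in Control by 0.66 (adjusted p = 0.00401) and than in IRI by 0.59 (adjusted p = 0.0106). The probe at chr11:70267780-70267839 gave 0.21 and -0.05 (adjusted p = 0.326 and 0.82). The within-array ratio differed by 0.45 and 0.65, at an exact permutation p of 0.057 and 0.086. The log2 ratio of the junction probe to the other was 0.66 ± 0.06 in Hemin and 0.13 ± 0.27 in Control, and their arrays did not overlap (0.54, exact permutation p = 0.029, the smallest possible, and 0.081 adjusted over 14).

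**Figure D2:**
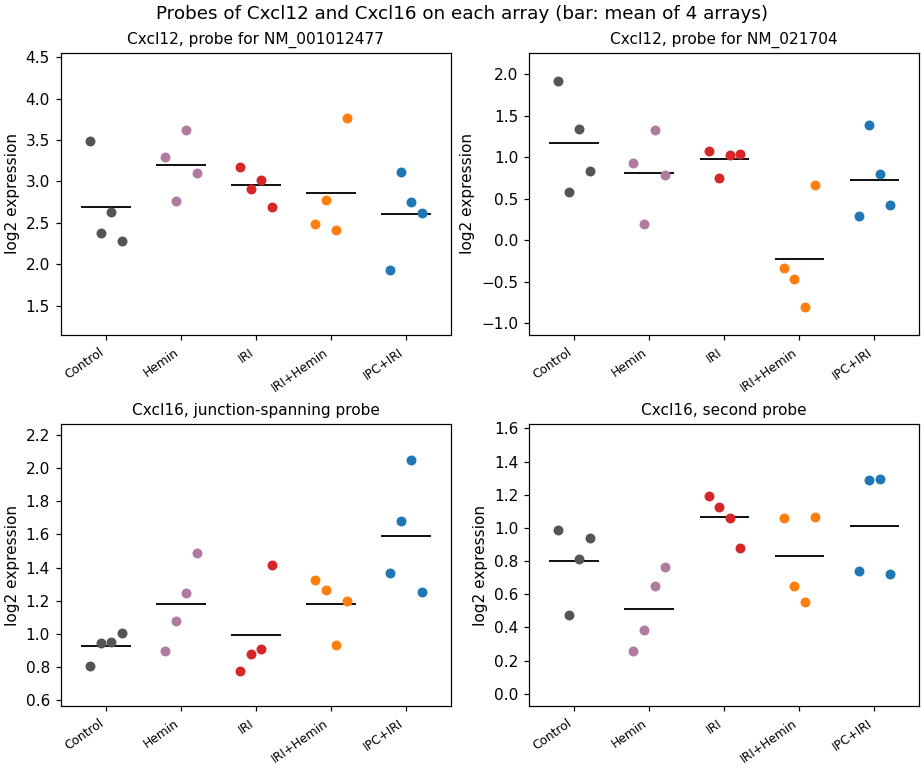
Log2 expression (y axis, equal span within a row) of the 2 probes of Cxcl12 and the 2 probes of Cxcl16 on each array of the 5 groups, with bars at group means. The NM_021704 probe of Cxcl12 lies between -0.80 and 0.67 in IRI+Hemin, where the NM_001012477 probe lies between 2.41 and 3.77.

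The 6 other CXC ligands on the array were mostly dim. Cxcl4, named Pf4 on the array and released by platelets, rose from -2.28 in Control to -0.84 in IRI (1.44, adjusted p = 0.000639) and -0.84 in IPC+IRI, and averaged -1.31 in IRI+Hemin and -1.48 in Hemin. It was higher than in Control in those groups too (0.97, adjusted p = 0.00943, and 0.81, adjusted p = 0.0415). Cxcl7, named Ppbp and also a platelet product, rose from -3.54 in Control to -2.51 in IRI (1.03, adjusted p = 0.0176) and -2.16 in IPC+IRI (1.38, adjusted p = 0.00222), with -2.88 in IRI+Hemin and -4.03 in Hemin. Cxcl15, known from lung epithelium, was lower than in Control in all 4 other groups, Hemin without surgery included. It averaged -3.89 in Control and was not above background on any IRI array, so that Control was at least 1.76-fold higher (adjusted p = 0.00152). The differences were -1.49 in Hemin (adjusted p = 0.014), -1.52 in IRI+Hemin (adjusted p = 0.00701) and -2.16 in IPC+IRI (adjusted p = 0.000503), groups with at most 2 arrays above background. Cxcl11, the third Cxcr3 ligand, was above background on 3 IPC+IRI and 3 IRI+Hemin arrays, 1 IRI array and no Control array, with means of -4.05, -4.24, -4.73 and -5.13. Cxcl3 was above background on at most 1 array of a group, with means from -7.39 to -5.80. Cxcl17 was above background on 3 IRI+Hemin and 2 IPC+IRI arrays, with means of -4.70 and -4.74, and on none elsewhere.

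Of the 8 receptors, 5 were tested in IRI vs Control, and 2 were higher and 0 lower beside 17% and 33.7% of all genes: Cxcr4 and its ligand-sharing partner Ackr3 (Cxcr7 on the array). Cxcr4 averaged -3.38 in Control and -2.69 in IRI (0.69, adjusted p = 0.0411), and was lower in IPC+IRI than in IRI (-0.96, adjusted p = 0.00897). It was also lower in Hemin than in Control (-0.90, adjusted p = 0.0158). Ackr3, a scavenger of Cxcl12, averaged 2.69 in Control and 3.26 in IRI (0.57, adjusted p = 0.0485), and was lower in IPC+IRI than in IRI (-0.75, adjusted p = 0.0141). Cxcr2 (Il8rb on the array) was not above background in Control or IRI and was above it on 3 arrays each of IPC+IRI and IRI+Hemin and 2 of Hemin. It was at least 1.05-fold higher in IPC+IRI and at least 1.08-fold higher in IRI+Hemin than in Control (adjusted p = 0.000892 and 0.000742). Those p-values rest on Control values below background, and the bounds lie close to no change. The 3 groups where it was seen were scanned on other days than Control and IRI, and day and group cannot be told apart. Cxcr3 was lower in IRI+Hemin, at -4.20, than in Control at -2.68 (-1.52, adjusted p = 0.00652) and than in IRI at -3.08 (-1.11, adjusted p = 0.0456). Cxcr6, the Cxcl16 receptor, was lower in IRI+Hemin, at -4.39, than in Control at -3.24 (-1.16, adjusted p = 0.0338). Ackr1 (Darc) averaged -4.74 to -4.01 and was called nowhere. Cxcr1 and Cxcr5 were not above background on any array.

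Genes of the route from cytokines and Toll-like receptors to NF-kappaB were mostly higher after ischemia. The list was chosen with earlier results of these data known, so its counts are descriptive. Of 18 genes, 16 were tested in IRI vs Control, and 11 were higher and 1 lower, beside 17% and 33.7% of all genes. The median was 1.10, against -0.17 for all genes. IPC+IRI vs Control gave 12 higher and 2 lower of 16, beside 23.1% and 32.6%, and IRI+Hemin vs Control 10 higher and 2 lower of 16, beside 24.4% and 33.1%. Hemin vs Control gave 2 higher and 1 lower of 15, beside 18.4% and 17.5%. Il6, a cytokine gene with the highest change, was at least 15.02-fold higher in IRI than in Control (adjusted p = 3.4e-08), and Irak4, a kinase of the pathway, was the lowest at -0.50 (adjusted p = 0.0346). Il6 entered the tests of the ischemic groups against Control through the ischemic arrays alone, which left little room for a lower call. Against IRI, 2 of 16 were higher and 4 lower in IPC+IRI, beside 26% and 17.7% of all genes, and 1 higher and 4 lower in IRI+Hemin, beside 26.1% and 18%. Il6 was among the lower ones in both (-1.17, adjusted p = 0.0463, and -1.81, adjusted p = 0.00405), which was noted after its values were seen.

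Of 7 genes for proteases and mRNA decay factors that act on CXC ligands, 6 were tested in IRI vs Control, and 2 were higher and 2 lower, beside 17% and 33.7% of all genes. Zfp36, whose protein destabilises chemokine mRNA, was higher by 1.71 (adjusted p = 0.00236), and Adam17, a sheddase, was lower (-0.51, adjusted p = 0.000945). In IRI+Hemin vs IRI 1 was higher and 5 were lower of 6, beside 26.1% and 18% of all genes, with Zfp36 at -1.59 (adjusted p = 0.00512). Adam10, the main sheddase of Cxcl16 and named after its values were seen, was lower than in IRI in both protected groups (-1.80 in IRI+Hemin and -2.01 in IPC+IRI). It was lower than in Control in Hemin as well (-1.94, adjusted p = 0.000332), and IRI vs Control gave -0.03 (adjusted p = 0.946). The part of the scan day in this was not tested.

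**Figure D3:**
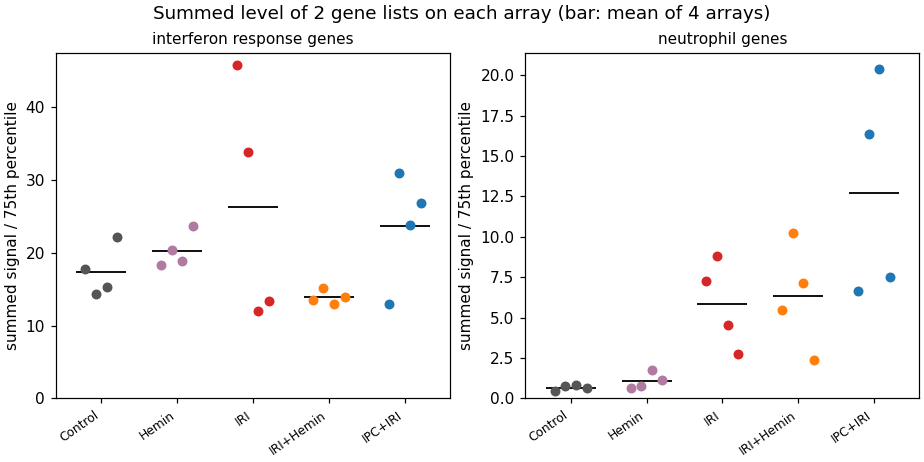
Summed signal of 2 gene lists on each array (y axis, in units of the array's 75th percentile, linear from 0) for interferon response genes (left) and neutrophil genes (right) in the 5 groups, with bars at the means of 4 arrays. The neutrophil sum lies between 0.477 and 1.78 in Control and Hemin and between 2.38 and 20.4 in the ischemic groups, and the interferon sum of IRI spans 12.05 to 45.8.

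Markers of other cells were set beside 17% of all genes higher and 33.7% lower in IRI vs Control. Of 4 neutrophil markers tested 3 were higher and 1 lower, and in IPC+IRI vs Control 6 of 9 were higher and 1 lower, beside 23.1% and 32.6%. Of those higher, 2 of the 3 in IRI and 5 of the 6 in IPC+IRI entered the test through the ischemic arrays alone, so these counts were largely set by the filter. Macrophage markers gave 2 higher and 1 lower of 11, with Cd68 at 2.23 (adjusted p = 2.06e-05) and Aif1 at -1.57 (adjusted p = 0.00503), and their sums overlapped between groups. These sums mostly follow Ly6c2, whose log2 expression averaged 5.83 in Control against -2.53 for Cd68, so their overlap says little about the other markers. Of 8 T cell markers 3 were lower and 0 higher, Cd8a at -1.32 (adjusted p = 0.000125) and Cd3d at 0.24 (adjusted p = 0.693). All 3 B cell markers tested were lower, from -0.84 for Cd79b to -1.07 for Cd79a, while Cxcl13 was higher. Endothelial markers gave 1 higher and 2 lower of 6, fibroblast markers 0 higher and 1 lower of 6, and kidney epithelium 1 higher and 2 lower of 9.

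The genes whose pattern over the 20 arrays was most like each chemokine were found by the root mean square difference of log2 expression after centring, among 16257 genes. For Cxcl1 they were Maff at 0.836 and Socs3 at 1.06, where Cxcl1 itself varied by 3.05 about its mean. For Cxcl2 they were Inhbb (0.606) and Eps8l3 (0.615), and for Cxcl5 Ptpn22 (0.942) and Slpi (0.996). Cxcl9 was nearest to Mpa2l (0.843) and Iigp1 (0.898), and Cxcl10 to Rnd3 (0.645) and Ier5 (0.656). Cxcl13 was nearest to C730049O14Rik (0.688) and Fkbp5 (0.702), and Cxcl14 to 2310014H01Rik (0.387) and Plekho2 (0.430). Cxcl12 was nearest to Col16a1 (0.290) and Hsd11b1 (0.295), and Cxcl16 to C920025E04Rik (0.165) and Gng10 (0.178). Cxcl2, Cxcl5 and Cxcl13 were above background on 11, 6 and 7 of the 20 arrays, so their nearest genes rest in large part on dim values. The arrays share groups, slides and scan days, so these are descriptions only.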

How the data were processed

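Kidney RNA of 5 groups (20 arrays, 4 a group) carried Cy3 on one-colour Agilent arrays. Per the file headers, Agilent Feature Extraction 9.5.3.1 wrote the spot intensity after background subtraction and detrending, with no scaling between arrays, and the raw mean and background intensity beside it. The authors also deposited a log2 value matrix, used here as an alternative. Control spots and spots marked uneven or outlying were left out, saturated spots were kept, and repeated spots were averaged per probe. Signals were scaled to the array's 75th percentile (146.7 to 357.9), probes of a gene name were averaged, and log2 was taken. All 20 arrays were fitted with 5 group means in limma 3.58.1 (R 4.3.3), with Benjamini-Hochberg adjustment over the genes tested in a comparison. The methods used SAM to find differentially expressed genes, and SAM was not run here. The methods' t-test is 1 that they name where microarray results were compared with qRT-PCR. A gene was tested with at most 1 missing value and with at least 3 of 4 arrays of either group well above background. The pipeline was tested on simulated data. Bounds written as "at least" set the dim group, per array, at the higher of the lowest signal well above background and the probe's own. The number of arrays limits the precision.

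The 9 chemokines and the gene lists were chosen with earlier results of these data known. Named were all 9 members, all members of the lists of other CXC ligands and of CXC receptors, the highest and lowest gene of each other list in IRI vs Control, and the 2 nearest genes of each member among genes above background on at least 16 arrays. Ly6g was not analysed here, and 1 gene that this rule names is not reported here. Promoter sequences are RefSeq's (GRCm38.p6), and probe positions are on mm9 as in the array files, which is a different build. The alternatives were background correction, scaling, the choice of probe, filters, the samples in the fit, a replicate block, a fold cutoff, the methods' t-test and leaving out each array. Replicate numbers did not pair the samples.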

Additional observations from a re-analysis of the deposited data

Results flagged for a closer look

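The values of the 9 chemokines were screened in each of the 5 groups of 4 arrays. Of these values, 2 stood apart from the rest of their group by Dixon's ratio, which chance alone passes in about 1 group of 20. Over all chemokines and groups screened, chance alone would give about as many. Cxcl14 in IPC+IRI replicate 1 was -0.21, and the nearest other array of the group was at 2.08. Cxcl16 in IRI replicate 4 was 1.17, and the nearest other array was at 1.01. The cause of neither was tested.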

How the results depend on the processing

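In IRI vs Control, Cxcl10 (2.50 to 3.23) kept its call in all 14 alternatives, and Cxcl1 (3.87 to 6.94) in the 13 that tested it, the deposited matrix being the exception. With the deposited log2 matrix, whose blanks leave dim genes untested, 1 chemokine was higher in IRI vs Control, 2 in IPC+IRI vs Control, 0 in Hemin vs Control and 1 in IRI+Hemin vs Hemin. There 0 were lower in IPC+IRI vs IRI and in IRI+Hemin against each of Control, IRI and Hemin. There Cxcl12 (-0.034) and Cxcl16 (-0.018) in IRI vs Control, Cxcl1 (0.28), Cxcl9 (0.54) and Cxcl13 (0.059) in IPC+IRI vs IRI, and Cxcl2 (0.24) and Cxcl16 (0.18) in IRI+Hemin vs IRI changed sign. With normexp, 3 were higher in IPC+IRI vs Control and 0 in Hemin vs Control, and 0 were lower in IRI+Hemin vs Control, 2 in IRI+Hemin vs IRI and 0 in IRI+Hemin vs Hemin. Cxcl1 in IPC+IRI vs IRI (0.077), Cxcl16 in IRI+Hemin vs IRI (0.11) and the Cxcl1 interaction (0.13) changed sign. Without normalization, 3 were higher in Hemin vs Control and 2 in IRI+Hemin vs Hemin, and Cxcl1 (0.32), Cxcl9 (0.094), Cxcl10 (0.10) and Cxcl13 (0.24) in IPC+IRI vs IRI and Cxcl12 (0.11) and Cxcl16 (0.34) in IRI+Hemin vs IRI changed sign. It shifted the median of all genes by up to 0.56, in Hemin vs Control, and the higher share of calls there from 51.2% to 94.8%. Normexp moved that share in IRI vs Control from 33.5% to 56.5%. Over all genes, the deposited matrix called 1465 higher and 6026 lower of 15585 in IRI vs Control. Normexp called 2704 higher and 3029 lower of 18342 in IPC+IRI vs Control. Without normalization, 8766 were higher and 477 lower of 18572 in Hemin vs Control.

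The 1 higher call in Hemin vs Control became 0 with scaling by probes above background on all arrays, no filter, the compared groups alone, and the methods' t-test, adjusted or not. The 1 lower call in IRI+Hemin vs Hemin became 0 with quantile normalization, no filter, the compared groups alone and both t-tests. The compared groups alone also gave 1 lower in Hemin vs Control and 2 in IRI+Hemin vs IRI. The adjusted t-test gave 0 lower in IRI+Hemin vs Control and in IPC+IRI vs IRI. In IRI+Hemin vs IRI it gave 1 lower, Cxcl14 in place of Cxcl9, and the unadjusted one gave 2. The brightest probe gave 1 higher in IPC+IRI vs IRI (Cxcl16) and Cxcl16 at 0.18 in IRI+Hemin vs IRI. The Cxcl14 interaction was 0.025 scaled by those probes and 0.012 with quantile normalization. The cause of these changes was not tested.

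With each array omitted in turn, 0 to 1 were higher and 0 to 1 lower in Hemin vs Control, 1 to 2 lower in IRI+Hemin vs IRI, 2 to 4 higher (2 without Hemin replicate 2) and 0 to 1 lower in IRI+Hemin vs Hemin, and 0 to 1 lower in the interaction. Signs changed for Cxcl9 in IRI vs Control (-0.31 to 0.82). They changed in IPC+IRI vs IRI for Cxcl1 (-0.23 to 0.21), Cxcl2 (-0.70 to 0.048), Cxcl9 (-0.76 to 0.47), Cxcl10 (-0.48 to 0.14) and Cxcl13 (-0.52 to 0.21). They also changed for Cxcl1 (-0.10 to 0.28) and Cxcl16 (-0.082 to 0.066) in IRI+Hemin vs IRI and for the Cxcl14 interaction (-0.35 to 0.31). Same-numbered arrays did not deviate together (r from -0.36 to 0.19, median -0.03, over 40 pairs). With the replicate block, 3 rather than 4 were higher in IRI+Hemin vs Hemin, where Cxcl10 lost its call, and no other count changed. The slide as a random block was not run, since each group lies on 1 slide.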
